A study of Mus musculus with 4 samples.

Results

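Spp1 encodes osteopontin, a secreted phosphoprotein that binds integrins and the hyaluronan receptor CD44. In the brain it is known as a product of activated microglia near amyloid plaques, where it is counted among the genes of the disease-associated state (DAM), and of some macrophages at the borders of the brain. In the DAM program, Apoe and Cst7 are among the genes that come up as microglia leave the homeostatic state, and Trem2, a lipid receptor, is needed for the full program. Spp1 was 1 of 397 genes on the targeted immune panel, and the description below rests on the cells in which it had a read. Its gene (NCBI gene 20750) lies on the plus strand of chromosome 5, at chr5:104435111-104441053 of GRCm38 in the RefSeq annotation.

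Brain cells came from 4 male mice aged 9 months. All 4 carried the 5XFAD transgenes, which drive amyloid deposition through neuronal expression, and per the study's methods all were heterozygous for a Trem2 variant from the SJL background. In 2 mice, KO1 and KO2, the Abi3 locus was deleted on both alleles (Abi3-/-), and in 2, WT1 and WT2, it was intact (Abi3+/+). The null allele was made on C57BL/6N and is carried by every cell, while the 5XFAD line is on B6SJL, so the backgrounds are mixed. Cells came from the right hemisphere without cerebellum and olfactory bulb. Abi3 was not on the panel, so the deletion could not be checked here. Each mouse gave 1 library, so a difference between mice and one between libraries cannot be told apart, and p-values between genotypes measure the spread between these mice.

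The deposited values are reads per gene and cell, not molecules. Of 21172 cells, the 13820 with 40 or more genes and no more reads than the study's upper limit were kept (2321, 4499, 3796 and 3204 cells in KO1, KO2, WT1 and WT2), with median reads per cell of 19647.5 to 24283. A Spp1 read was found in 463 kept cells, which were 182 in KO1, 151 in KO2, 57 in WT1 and 73 in WT2. Cells were assigned to classes by marker genes, and those with a Trem2 read and no other class are called microglia (13053 cells). C1qa, a complement gene of microglia and macrophages, was read in 99.7% to 99.9% of them in each mouse, and Cx3cr1, the fractalkine receptor, in 76.2% to 94.4%. Neither Tmem119 nor P2ry12, which separate microglia from other macrophages, was on the panel. Between any pair of libraries, 17 to 42 cell barcodes were shared, and no barcode was Spp1-positive in both libraries among the kept cells. The 4 mice are not equal in this gene: KO1 stood apart with the highest share of Spp1-positive cells in every microglia class, so some of the genotype values are also given without it.

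Most Spp1-positive cells were microglia that also had reads of Apoe, the lipid carrier, and Cst7, the protease inhibitor cystatin F. These double-positive cells made up 123 of 182 Spp1-positive cells in KO1 (67.6%), 92 of 151 in KO2 (60.9%), 36 of 57 in WT1 (63.2%) and 41 of 73 in WT2 (56.2%). Among all kept cells they were only 31.2%, 31.3%, 17% and 18.1%. As Spp1 was chosen by the cells that express it, these levels are a description and carry no test.

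The share of Apoe- and Cst7-positive microglia with a Spp1 read was 17% in KO1 (95% exact binomial interval 14.3% to 19.9%, 725 cells) and 6.52% in KO2 (5.29% to 7.94%, 1410 cells). It was 5.59% in WT1 (3.95% to 7.66%, 644 cells) and 7.06% in WT2 (5.11% to 9.45%, 581 cells). Even in a class that carries both DAM genes, then, Spp1 was read in a minority of cells. All such intervals cover counting error alone.

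Microglia with neither Apoe nor Cst7 had the lowest shares. They were 2.68% in KO1 (13 of 485 cells), 0.823% in KO2 (13 of 1579), 0.293% in WT1 (6 of 2049) and 0.477% in WT2 (8 of 1677). The difference between the double-positive and the double-negative class was 7.97 ± 4.25 percentage points (SD, n = 4 mice), and it was positive in each mouse, from 5.30 to 14.3. Without the cell filter it was 12.8 points. The single-positive classes lay between them. With Apoe alone, the share was 3.96%, 2.13%, 0.870% and 1.20% in KO1, KO2, WT1 and WT2, and with Cst7 alone it was 5.00%, 3.96%, 1.09% and 2.56%. In each mouse Cst7 alone stood above Apoe alone, but the intervals of these neighbouring classes overlapped in all 4 mice.

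**Figure D1:**
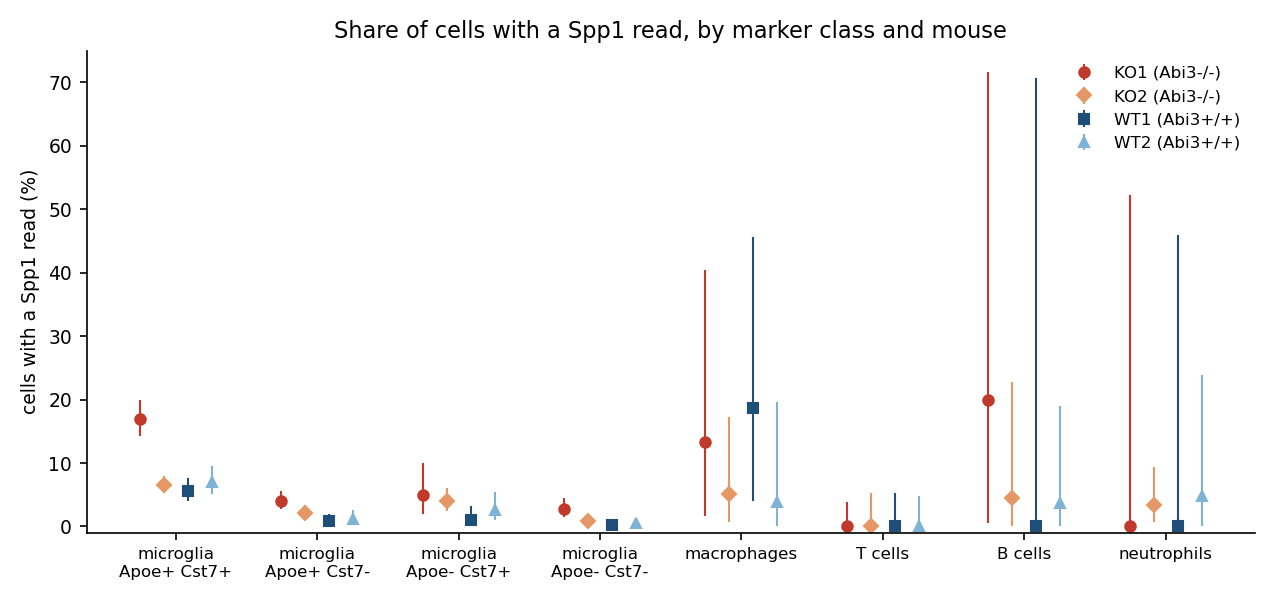
Percent of kept cells with a Spp1 read (vertical axis) in each marker class, with 1 point per mouse and bars for 95% exact binomial intervals. Apoe- and Cst7-positive microglia lie at 5.59% to 17%, double-negative microglia at 0.293% to 2.68% and T cells at 0, while the small macrophage, B cell and neutrophil classes have wide intervals.

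Cell depth rose along the same classes. The median reads per cell were 27647.5 to 31908 in the double-positive class and 16978 to 20987 in the double-negative class. Within each quartile of reads per microglia of a mouse, the double-positive class still had the higher share, in 16 of 16 strata. Many strata are thin, with 1 to 88 Spp1-positive cells in the double-positive and 0 to 5 in the double-negative class, as in the third quartile of WT1 with 1 of 98 against 2 of 542 cells. In the deepest quartile the shares were 26% against 8.51% in KO1, 8.36% against 2.46% in KO2, 7.51% against 0.697% in WT1 and 10.0% against 2.29% in WT2. Thinning each cell to 10000 reads left every Spp1-positive cell that was deep enough positive (181, 143, 57 and 68 cells), as no positive cell held fewer than 11 Spp1 reads. Thinning reads is not thinning molecules, and the depth quartiles are the comparison to read here.

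T cells, which can make osteopontin when activated and so are no strict background, had no Spp1 read here. None of 307 T cells had a Spp1 read, which allows a share of up to 1.19% (upper end of the exact binomial interval), at median depths of 15117 to 17450 reads. Within single mice, 68 to 95 T cells with no Spp1 read allow up to 3.81% in KO1, 5.28% in KO2, 5.28% in WT1 and 4.74% in WT2. The double-positive microglia, which were deeper than the T cells, lay above the limit of their own mouse in all 4 mice. In the lowest quartile of reads per microglia, their shares were 5.26%, 2.12%, 4.26% and 2.94% in KO1, KO2, WT1 and WT2. There only KO1 lay above its limit. For the double-negative microglia these T cells are too few for a comparison within a mouse. Against the limit over all 307 T cells, the double-negative share of KO1 lay above and those of KO2, WT1 and WT2 below. Spp1 was also read in 4 of 122 neutrophils (3.28%) and 3 of 57 B cells (5.26%), both above the double-negative share, with 11 to 59 reads each, of which 2 of the neutrophils and none of the B cells also had a Trem2 read.

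Macrophages, taken as cells with 2 or more of Ccr2, Clec10a, F13a1 and Cd163, included 8 Spp1-positive cells of 96 (8.33%, interval 3.67% to 15.8%). These were 2 of 15 cells in KO1, 2 of 39 in KO2, 3 of 16 in WT1 and 1 of 26 in WT2. The shares ran from 3.85% to 18.8%, and their intervals overlapped those of the double-positive microglia in each mouse. Cells just outside the class, with exactly 1 of the 4 markers and no other class, had 11 positive cells of 264, and those with exactly 2 markers 7 of 62.

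Among the macrophages, Ccr2, the receptor of recruited monocytes, and Cd163, a scavenger receptor of border macrophages, overlap in part. Spp1 was read in 6 of 57 macrophages with Ccr2 and not Cd163, in 1 of 23 with Cd163 and not Ccr2, and in 1 of 15 with both. The 8 positive macrophages held 22 to 287 Spp1 reads, and 3 of them also had a Trem2 read, against 54 of all 96 macrophages. With 1 to 3 positive cells per mouse, no gene was compared between Spp1-positive and Spp1-negative macrophages.

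A small group without Trem2 had the highest share of the classes. Of 19 kept cells with 2 or more of F5, Thbd and Tgfb3 and no other class, 13 had a Spp1 read (68.4%, interval 43.4% to 87.4%). They were 1 of 1 cell in KO1, 4 of 5 in KO2 and 8 of 13 in WT2, and WT1 had no such cell. Their Spp1 reads ran from 43 to 994 per positive cell, and the class held 12.4% of the kept Spp1 reads of WT2 from 0.406% of its cells. Tgfb3, a growth factor, was read in 19 of the 19 cells and Thbd, the thrombin receptor thrombomodulin, in 17, while F5, coagulation factor V, was read in 2. Cx3cr1 was read in none and C1qa in 1. C1qb, another complement gene, was read in the 1 cell of KO1, in 60% of the 5 cells of KO2 and in 0 of the 13 cells of WT2. Fn1 and Lgals1 were each read in 17 of them, and Lmna, chosen after its values were seen, in 16. Cells with exactly 1 of the 3 markers and no Trem2 read had 2 Spp1-positive cells of 109. No cell type is assigned to these cells, as the panel holds no marker that was set for one.

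Spp1 reads were very unequally spread over positive cells. In the kept cells, the median positive cell held 72, 66, 73 and 91 Spp1 reads in KO1, KO2, WT1 and WT2, no positive cell held fewer than 11, and the highest held 920, 2301, 2731 and 1214. In KO1, 39 cells together reached 50% of the kept Spp1 reads, against 12 in KO2, 4 in WT1 and 10 in WT2. Sums of reads per mouse therefore rest on few cells, above all in WT1.

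The cells richest in Spp1 lay outside the upper read limit. Of all Spp1 reads in the deposited tables, cells over the limit held 81.9% in KO1, 74.8% in KO2, 66% in WT1 and 64.9% in WT2, and they were 214 of 3405, 475 of 6476, 491 of 6204 and 498 of 5087 cells. Cells with fewer than 40 genes held 0.226% to 2.07%. In each mouse the 3 cells with the most Spp1 were over the limit and had reads of Trem2, Apoe and Cst7. The highest held 25088 Spp1 reads of 288387 in KO1 (8.70% of the cell's reads) and 33343 of 213269 in KO2 (15.6%). In WT1 the highest held 4176 of 123422 (3.38%), and in WT2 5049 of 182116 (2.77%). Spp1 itself put only 1 cell of KO1 and 1 of WT1 over the limit, in that these 2 cells would have been under it without their Spp1 reads.

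Among double-positive microglia over the limit, Spp1 was read in 118 of 194 cells in KO1 (60.8%), 74 of 384 in KO2 (19.3%), 79 of 455 in WT1 (17.4%) and 79 of 413 in WT2 (19.1%). Over cells of all classes, the share was lower just above the limit than just below it, though only slightly in KO2 and from few positive cells. In the last 10% below it, Spp1 was read in 18 of 50 cells in KO1 (36%), 11 of 112 in KO2 (9.82%), 12 of 54 in WT1 (22.2%) and 12 of 65 in WT2 (18.5%). In the first 10% above it, the counts were 8 of 34 (23.5%), 8 of 91 (8.79%), 4 of 50 (8%) and 6 of 71 (8.45%). Very deep cells may be single large cells or more than 1 cell under 1 barcode, and this was not tested.

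**Figure D2:**
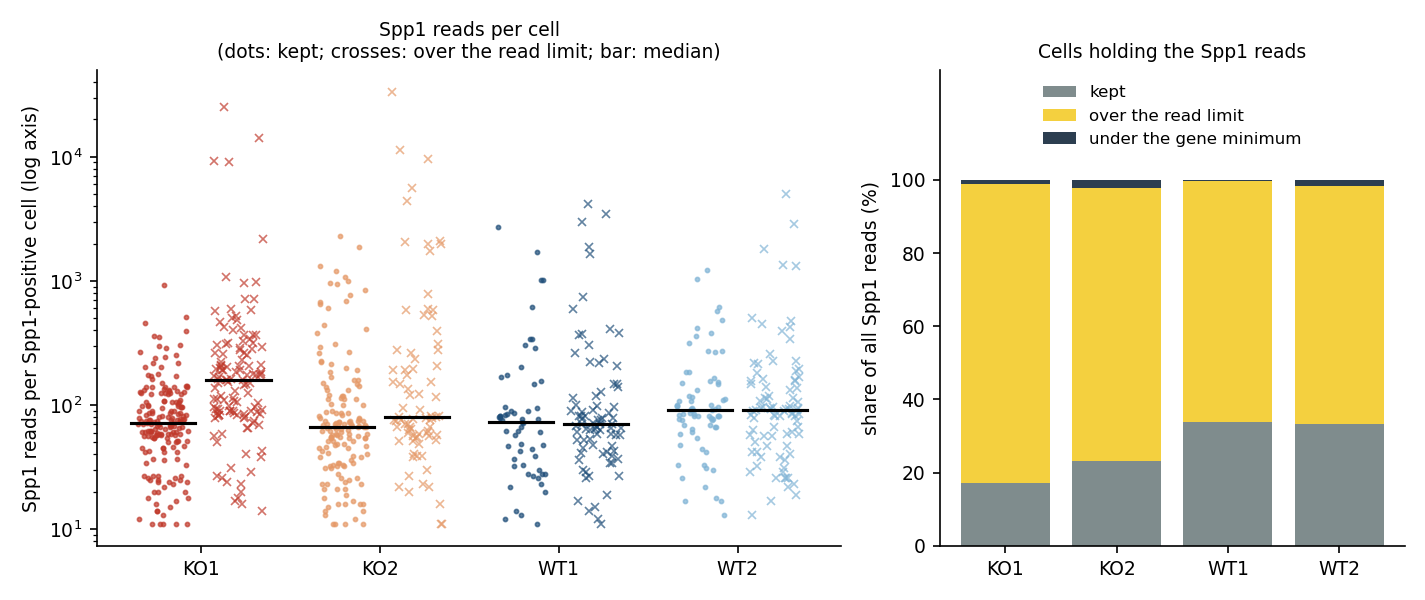
Left, Spp1 reads in each Spp1-positive cell (log axis) by mouse, with dots for kept cells, crosses for cells over the read limit and bars for medians. Right, percent of all Spp1 reads of a mouse held by kept cells, cells over the read limit and cells under the gene minimum. Kept cells hold 17.1% to 33.7% of the reads.

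The genes ranked closest to Spp1 across microglia were all on the DAM list, which was set with earlier results of these data known. The 10 highest mean Spearman correlations over the 4 mice, each across 2183 to 4221 cells of 1 library, belonged to Cst7 (0.18), Itgax (0.17), Lilrb4a (0.17), Csf1 (0.14), Apoe (0.14), Lyz2 (0.13), Cd63 (0.12), Cd52 (0.12), Cd9 (0.11) and Ctsd (0.11). These are weak correlations in sparse counts whose cells share a library and differ in depth, and they are given as a ranking only.

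Outside the genes of the rule, 3 DAM genes were followed as a count per cell, chosen after their values were seen. Itgax encodes the integrin CD11c, Lilrb4a an inhibitory receptor of the immunoglobulin superfamily, and Csf1 the growth factor of microglia and macrophages. In microglia with none of the 3, Spp1 was read in 3.96%, 1.17%, 0.430% and 0.398% of cells in KO1, KO2, WT1 and WT2. With 1 of them it was read in 9.62%, 3.21%, 2.51% and 2.88%, with 2 in 30.9%, 9.54%, 8.29% and 9.66%, and with all 3 in 34.1%, 17.3%, 10.6% and 21.3%. The order held in each mouse, although the class with all 3 held only 44 to 150 cells and its interval overlapped that of the class with 2 in all 4 mice. Within double-positive microglia alone, the share still rose from 8.05%, 2.33%, 2.91% and 2.33% with none to 39.5%, 18.1%, 9.84% and 23.7% with all 3. Median reads per cell rose along the same steps, from 17518.5 to 22640 with none to 40414.5 to 41762.5 with all 3.

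**Figure D3:**
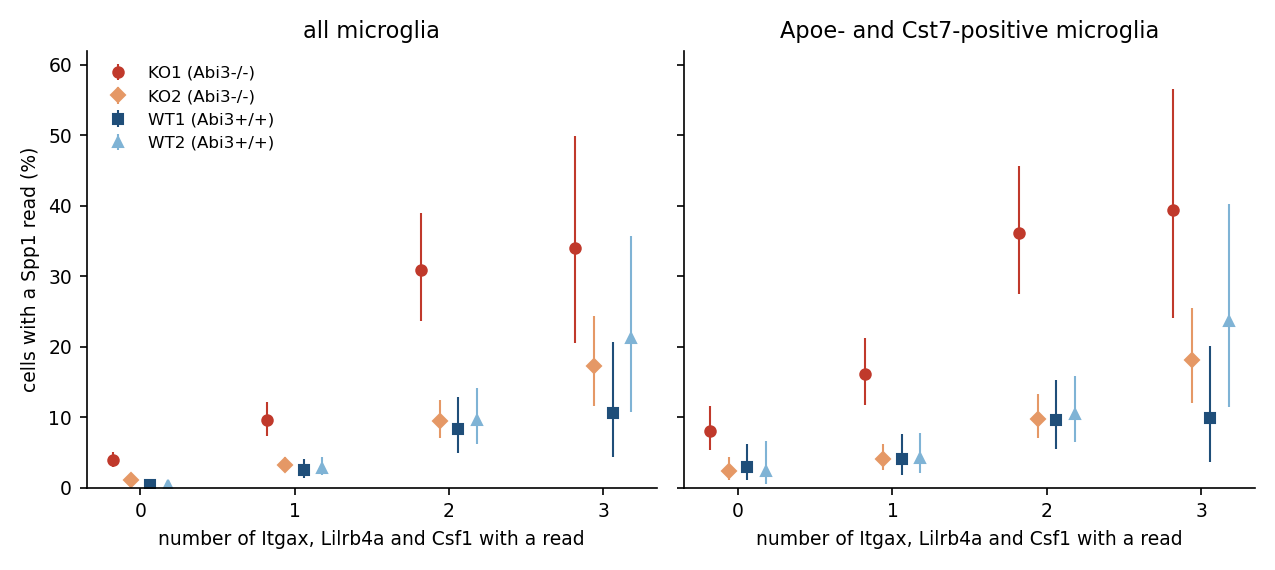
Percent of microglia with a Spp1 read (vertical axis) against the number of Itgax, Lilrb4a and Csf1 with a read in the same cell, for all microglia (left) and for Apoe- and Cst7-positive microglia (right). Points are mice and bars 95% exact binomial intervals, and the share with all 3 genes is above the share with none in each mouse, from 10.6% to 34.1% against 0.398% to 3.96% in all microglia.

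To ask which other panel genes differ, the reads of Spp1-positive microglia (176, 140, 51 and 61 cells in KO1, KO2, WT1 and WT2) and of Spp1-negative microglia were summed per mouse and compared with edgeR's quasi-likelihood test, with the mouse as a block. Spp1 was left out of the sums. Of 278 genes tested, 31 rose (11.2%) and 48 fell (17.3%) at an adjusted p of 0.05, and each called gene moved the same way in all 4 mice. Apoe and Cst7, which are in the rule, were among the 31. The median gene fell by 0.49 on the log2 scale with TMM scaling and by 0.61 without it, and no called gene of the fixed lists changed sign without TMM or with DESeq2's scaling. Spp1-positive microglia were deeper, with median reads of 34726.5, 28136, 39525 and 37016 against 23949, 19712, 19678 and 22651. When negative cells were weighted to the depths of the positive cells, an alternative added after seeing the data, 23 genes rose and 16 fell, all of them among the 31 and the 48.

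The DAM list, which was set with earlier results of these data known, rose as a whole. Leaving out Apoe, Cst7 and Trem2, 11 of 11 tested members rose, with a median log2 fold change of 1.04 beside -0.49 over all genes, of which 11.2% rose. Without WT2, 5 of the 11 passed. Itgax was read in 57.4%, 71.4%, 62.7% and 72.1% of Spp1-positive microglia in KO1, KO2, WT1 and WT2, against 26.7%, 32%, 15.9% and 26.2% of Spp1-negative ones. The positive cells were deeper, and such shares of cells with a read are not matched for depth. The log2 fold change of Itgax was 2.08 ± 0.17 (SE, adjusted p = 0.0025), or 2.57 above the median gene. Csf1 was read in 31.3%, 29.3%, 39.2% and 31.1% against 10.1%, 11%, 7.90% and 5.26% (log2 fold change 2.12 ± 0.28, adjusted p = 0.0043).

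Lgals3, which encodes the sugar-binding lectin galectin-3, was a gene of few microglia and rose by 2.21 ± 0.30 on the log2 scale (adjusted p = 0.0043). It was read in 12.5%, 19.3%, 21.6% and 24.6% of positive against 2.44%, 4.14%, 2.11% and 5.97% of negative cells. Lilrb4a rose by 1.6 ± 0.20 (adjusted p = 0.0043) and the chemokine gene Ccl6 by 1.46 ± 0.15 (adjusted p = 0.0025). Smaller rises were found for genes read in most microglia, as in the lysosomal protease gene Ctsd (0.44 ± 0.09), the iron storage gene Fth1 (0.50 ± 0.13) and the tetraspanin genes Cd9 (0.63 ± 0.10) and Cd63 (0.79 ± 0.12). In all, 10 of the 11 held with negative cells weighted by depth, Ctsd being the exception (0.20, adjusted p = 0.057). Of the genes in the rule, whose values carry no test, Cst7 was higher by 1.68, Apoe by 1.21 and Trem2 by 0.20.

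The rule for the largest rises named, beside Csf1, Itgax, Cst7, Lilrb4a, Ccl6, Apoe and Cd52 (1.04 ± 0.22), 3 genes outside the DAM list. Cd72, a lectin-like receptor best known from B cells, rose by 1.37 ± 0.22 (adjusted p = 0.0061). Il3ra, a subunit of the interleukin-3 receptor, rose by 1.22 ± 0.25 (adjusted p = 0.015). Pdcd1, which encodes the checkpoint receptor PD-1, rose by 1.18 ± 0.30 (adjusted p = 0.030) and was read in 36.9%, 52.1%, 25.5% and 44.3% of positive against 15.2%, 28.2%, 9.06% and 9.70% of negative microglia. At weighted depths Cd72 still passed the test, and Pdcd1 and Il3ra did not (adjusted p = 0.074 and 0.065).

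Homeostatic genes fell, 4 of 4, with a median of -0.95, where 17.3% of all genes fell. Without WT2, 0 of the 4 passed. Selplg, the selectin ligand PSGL-1, fell by 0.97 ± 0.11 on the log2 scale (adjusted p = 0.0027) and Cx3cr1 by 0.92 ± 0.16 (adjusted p = 0.0075). Entpd1, the ectoenzyme CD39, fell by 0.83 ± 0.12 (adjusted p = 0.0048) and the transcription factor Maf by 1.65 ± 0.35 (adjusted p = 0.017). Relative to the median gene these falls were -0.48, -0.43, -0.34 and -1.16. With depth weighted, 3 of the 4 held, and Cx3cr1 did not (adjusted p = 0.065). Cx3cr1 was read in 90.3%, 79.3%, 78.4% and 57.4% of positive against 94.8%, 89.1%, 93.3% and 76.6% of negative microglia, so most Spp1-positive cells still had it.

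Immediate early genes, which respond within minutes to stimulation and can come up during tissue dissociation, fell in 4 of 6 cases, where 17.3% of all genes fell, and without WT2 1 of the 6 passed. Egr1 fell by 1.16 ± 0.12 (adjusted p = 0.0025) and was read in 46.6%, 44.3%, 47.1% and 42.6% of positive against 61.7%, 65%, 76.5% and 75% of negative cells. Junb fell by 0.94 ± 0.13, Jun by 0.88 ± 0.12 and Dusp1 by 0.61 ± 0.10, and these 4 also held at weighted depths. Relative to the median gene, Egr1, Junb, Jun and Dusp1 were at -0.67, -0.45, -0.39 and -0.12. Fosb (-0.85 ± 0.29, adjusted p = 0.075) and Ier3 (-0.61 ± 0.20, adjusted p = 0.065) did not pass.

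The rule for the largest falls named 10 genes, of which those given here are Maf, Slc25a37, Birc3, Ccl2, Il6, Egr1, Casp8, Fscn1 and Tmem173. Tmem173, which encodes the DNA-sensing adaptor STING, fell by 1.08 ± 0.13 (adjusted p = 0.0042). Fscn1, the actin-bundling protein fascin, fell by 1.12 ± 0.16 (adjusted p = 0.0048). The mitochondrial iron importer Slc25a37 fell by 1.34 ± 0.26, the apoptosis inhibitor Birc3 by 1.30 ± 0.35, the cytokine Il6 by 1.23 ± 0.30 and the protease Casp8 by 1.13 ± 0.24. Of these, Maf, Egr1, Fscn1 and Tmem173 also passed at weighted depths.

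Chemokines did not move as 1 group. Of 7 tested, Ccl6, Cxcl16 (0.92 ± 0.20, adjusted p = 0.017) and Ccl3 (0.64 ± 0.16, adjusted p = 0.030) rose, and Ccl2 fell by 1.29 ± 0.36 (adjusted p = 0.040). Over all genes, 11.2% rose and 17.3% fell. Ccl4, Ccl9 and Cxcl10 did not pass, at 0.51, 0.04 and -3.15. At weighted depths Ccl6 and Cxcl16 remained past the test, while Ccl3 and Ccl2 did not. Without WT2, 1 of the 7 rose past the test and 0 fell.

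Of the cell cycle list, 3 of 9 genes rose, where 11.2% of all genes rose. Summed over the list, CPM was higher in positive cells of KO2, WT1 and WT2 and lower in KO1 (1470 against 1590). A read of the list was found in more positive than negative cells of KO1, KO2 and WT1 and in fewer of WT2 (55.7% against 58.6%). Ube2c rose by 2.72 ± 0.38 (adjusted p = 0.0048), Mki67 by 2.28 ± 0.34 (adjusted p = 0.0048) and Top2a by 2.09 ± 0.30 (adjusted p = 0.0048). These 3 rises came from few cells, since Mki67 was read in 3.41%, 2.86%, 9.80% and 3.28% of positive against 0.199%, 0.956%, 0.499% and 0.819% of negative microglia. The others did not pass, with the mitotic kinase gene Aurkb at 1.21 ± 0.96, 2810417H13Rik at 0.10 and the DNA replication genes Mcm2 at -1.15, Mcm4 at -0.91, Tyms at -0.04 and Pcna at -0.03.

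Partners of osteopontin itself were rarely read in these cells. Cd44, its receptor, was at 1.25 ± 0.72 (adjusted p = 0.24) and read in 2.84%, 8.57%, 5.88% and 6.56% of positive against 1.74%, 1.94%, 1.28% and 1.67% of negative microglia. Itga4, a subunit of an integrin receptor, was at -0.05 ± 1.44 (adjusted p = 0.98). Of the proteases known to cut osteopontin, Mmp12 was at 0.53 ± 1.00 (adjusted p = 0.73), and Mmp9 had too few reads to enter this fit. Fn1, another secreted matrix protein, rose by 2.68 ± 0.69 (adjusted p = 0.030), from reads in 1.70%, 4.29%, 5.88% and 4.92% of positive against 0.0997%, 0.858%, 0.471% and 0.615% of negative cells. Without WT2, Fn1 did not pass (adjusted p = 0.085), and among microglia at or under the median depth it was at -2.16. Thbs1, a matrix glycoprotein, was at -0.06.

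Anxa5, the phosphatidylserine-binding annexin, rose by 0.96 ± 0.22 (adjusted p = 0.024) and Lgals1 by 1.27 ± 0.35 (adjusted p = 0.039), whereas Lgals9 fell by 0.49 ± 0.10 (adjusted p = 0.016), which is the size of the median fall. S100a10 was at -1.74 ± 1.33. The hypoxia transcription factor gene Hif1a rose by 0.70 ± 0.13 (adjusted p = 0.0092) and the glycolytic gene Gapdh by 0.58 ± 0.14 (adjusted p = 0.023), and the hypoxia target Vegfa and heme oxygenase Hmox1 did not pass, at -0.07 and 0.22. None of 6 MHC class II genes passed, with Cd74 at 0.61 ± 0.42 and H2-Ab1 at 0.61 ± 0.70. For Cd74 the values of the mice went opposite ways by genotype, at 1.31 in KO1 and 1.79 in KO2 against -0.09 in WT1 and -0.60 in WT2 (interaction adjusted p = 0.28). The H2-Ab1 values did so too, at 1.05 and 3.0 against -0.15 and -1.29 (interaction adjusted p = 0.33), as did those of H2-Aa and H2-Eb1, while those of H2-DMa and H2-DMb2 did not. Of all 278 genes tested, 16 (5.76%) were above 0 in both Abi3-/- mice and below 0 in both Abi3+/+ mice. None of 5 interferon response genes passed, with Ifitm3 at 0.65 ± 0.25 (adjusted p = 0.10).

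**Figure D4:**
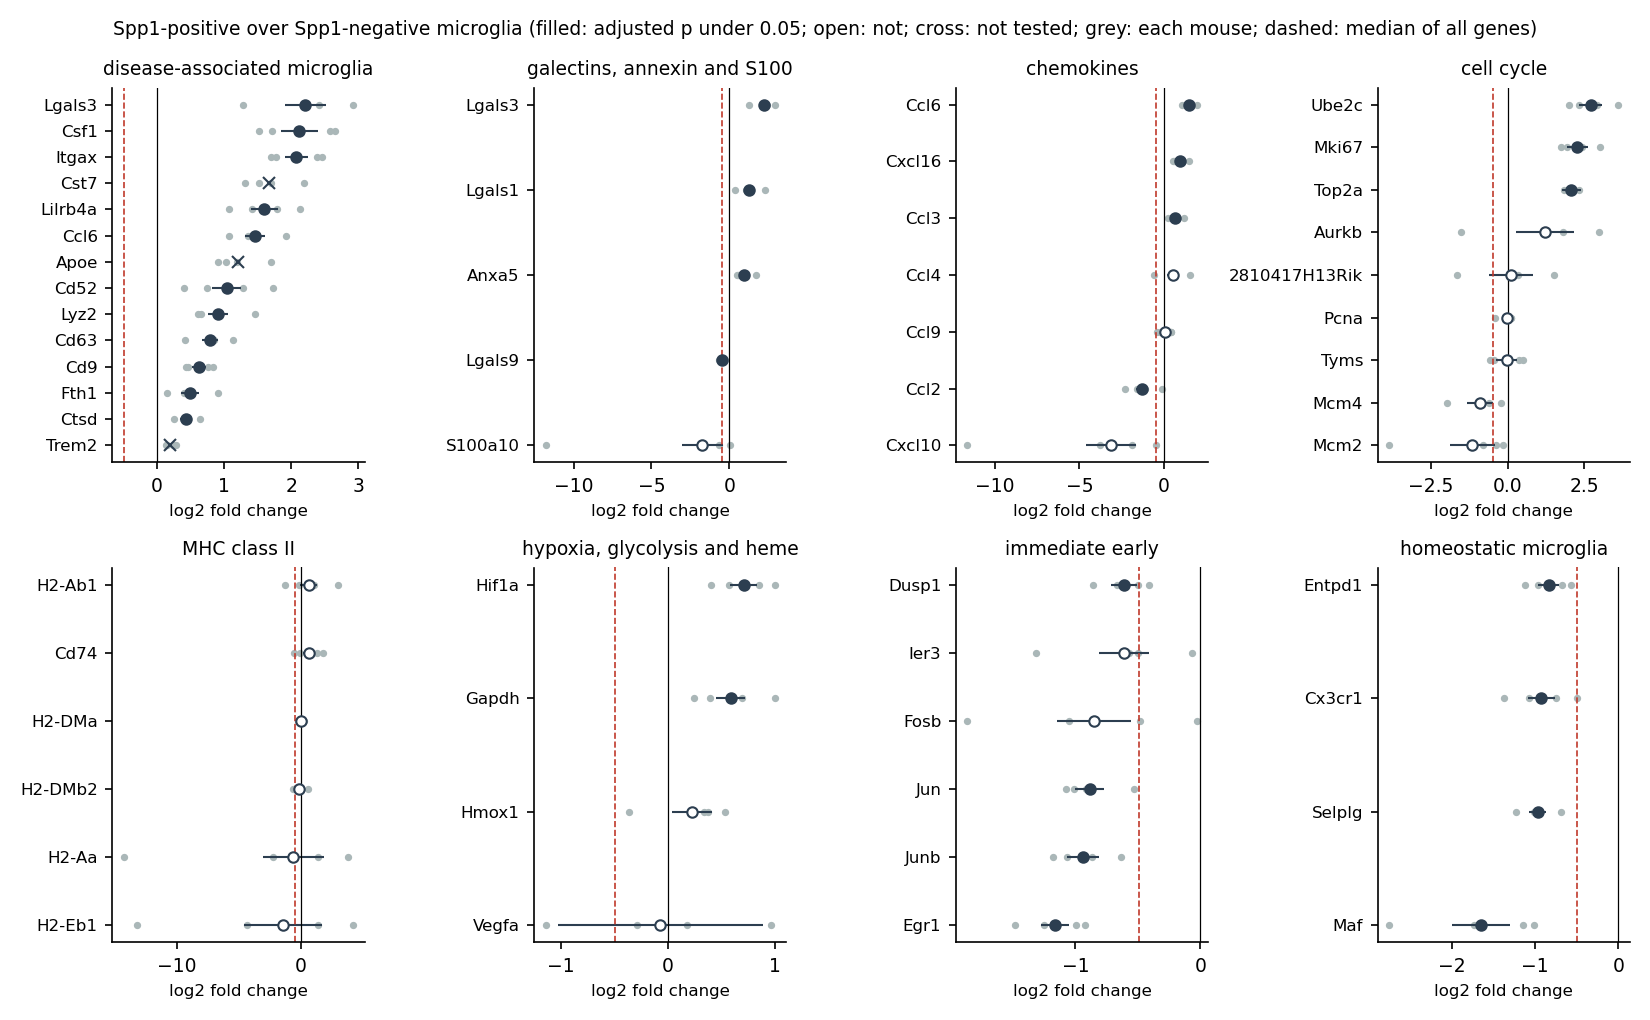
Log2 fold change of Spp1-positive over Spp1-negative microglia (horizontal axis, ranges differ between panels) for 8 gene lists, with large points for the fitted value, bars for its SE and grey points for each mouse. The tested DAM genes lie right of 0 in each mouse and the homeostatic genes left of it, and the dashed line marks the median of all genes at -0.49.

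Among the fits that left out 1 mouse, the one without WT2 gave the fewest calls, with 11 genes risen and 5 fallen. No called gene of the lists changed sign in it. By list, 5 of 11 DAM genes (Itgax, Csf1, Ccl6, Lgals3 and Lilrb4a), 3 of 9 cell cycle genes and 1 of 6 immediate early genes (Egr1) still passed, and 0 of 4 homeostatic genes did (Maf, Cx3cr1, Selplg and Entpd1 at -1.45, -0.60, -0.78 and -0.62, adjusted p = 0.097, 0.073, 0.051 and 0.061). Hif1a (0.83, adjusted p = 0.064) and Gapdh (0.72, adjusted p = 0.11) did not pass, nor by adjusted p did Anxa5 (0.11), Lgals1 (0.11), Cxcl16 (0.095), Ccl3 (0.096), Cd72 (0.052), Pdcd1 (0.052) and Il3ra (0.086). Without KO1, 23 rose and 24 fell. Among double-positive microglia alone, where the classes are more alike, 7 rose and 7 fell. Itgax, Csf1, Ccl6, Cxcl16, Cd9, Tlr2 and Cd34 were higher, and the lower genes included Fscn1, Ifngr1, Tmem173, Bin2, Selplg and Egr1. In microglia at or under the median depth of their mouse no gene was called. Only 27, 27, 11 and 10 Spp1-positive cells of KO1, KO2, WT1 and WT2 entered that fit. In a fit that let the difference depend on genotype, no gene of 278 was called for the interaction (edgeR, smallest adjusted p = 0.28).

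Some markers of other cells were higher in Spp1-positive microglia. Macrophage markers summed to 170, 246, 37.2 and 234 CPM in positive cells of KO1, KO2, WT1 and WT2, against 44, 39.4, 67.7 and 56.8 CPM in negative cells, and were thus higher in 3 mice. They were read in 1.14% to 3.28% of positive cells, and 2 or 3 of the 4 markers were at 0 there in each mouse. B cell markers were higher in WT1 alone, at 452 against 299 CPM and in 21.6% against 12.1% of cells, and lower in the other 3 mice. Neutrophil markers had fewer CPM in positive cells in all 4 mice (0 to 82.2 against 17.3 to 156), but they were read in more of the positive cells in KO1 (1.14% against 0.349%) and WT2 (6.56% against 2.15%). All 5 T cell markers were at 0 in positive cells, where negative cells had one in only 0.137% to 0.294%. The part of such cells in the results was not tested beyond the fit of cells without any of these markers, in which 30 genes rose and 24 fell.

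Between the genotypes, both Abi3-/- mice had more Spp1 in microglia than both Abi3+/+ mice. The share of microglia with a Spp1 read was 8.06% in KO1, 3.32% in KO2, 1.39% in WT1 and 2.04% in WT2. The means were 5.69% ± 3.36 and 1.72% ± 0.46 (SD, n = 2 mice each), a difference of 3.97 percentage points (two-sided exact permutation test, p = 0.333, the smallest that 2 against 2 mice can give). Without KO1 the difference was 1.6 points. The genotypes were apart, but so were 33.6% of 214 panel genes in the same direction. A ratio of mean shares at least as large as that of Spp1 was seen in 2 of the 214 genes (0.935%), and for CPM in 8 (3.74%). As a level, Spp1 had 297 and 250 CPM (its reads as a share of all reads of the class) in the microglia of KO1 and KO2, and 137 and 115 CPM in those of WT1 and WT2. On this scale 9.35% of the 214 genes had both Abi3-/- mice above both Abi3+/+ mice.

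In edgeR's test on the sums, Spp1 in microglia was higher in Abi3-/- by 1.31 ± 0.21 on the log2 scale, which did not pass (unadjusted p = 0.0035, adjusted p = 0.38). No gene of 328 passed (0.0%), 23 had an unadjusted p under 0.05, and Spp1 ranked 2 of 328 by p. DESeq2 called Spp1 in microglia (1.28 ± 0.28, adjusted p = 0.00059) among 8 genes higher in Abi3-/- of 327 with an adjusted p (2.45%) and 10 calls in all, and limma on mean log-normalized reads called none. Over all kept cells the values were 1.05 ± 0.25 by edgeR (adjusted p = 0.85, 0 of 375 genes called, 21 at an unadjusted p under 0.05) and 1.06 ± 0.28 by DESeq2 (adjusted p = 0.011), where 1.8% of genes were called higher. The edgeR difference over all cells was 1.94 ± 0.27 without the cell filter (adjusted p = 0.78). It was 1.65 ± 0.41 without the 5 kept cells of each mouse with the most Spp1 reads (adjusted p = 0.85), and 0.999 without KO1. Those 5 cells were picked by Spp1 itself. As 4 cells of WT1 against 39 of KO1 held 50% of the kept Spp1 reads, their removal lowers the sums unequally. A larger difference after it, here and below, cannot be read as a wider gap. Without KO1, the difference in microglia was 1.17 ± 0.25 (adjusted p = 0.53), in the same direction, where the spread comes from the Abi3+/+ mice alone and the lone Abi3-/- library is assumed to vary like them.

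The class mix differed too. Double-positive cells were 33.2% and 33.4% of the microglia of KO1 and KO2, and 17.6% and 19.4% of those of WT1 and WT2. At 1 common mix of the 4 classes, the Spp1-positive share would be 6.87% and 2.86% against 1.86% and 2.52%, still apart but with KO2 and WT2 close. Within double-positive microglia the genotypes overlapped, since KO2 (6.52%) lay below WT2 (7.06%). The means were 11.7% ± 7.38 and 6.32% ± 1.04 (difference 5.42 percentage points, two-sided exact permutation test, p = 0.667), and without KO1 the difference was 0.20 points. In CPM these cells had 572 and 483 in KO1 and KO2 against 342 and 331 in WT1 and WT2 (log2 fold change 0.59 ± 0.22, adjusted p = 0.84; 1.87 ± 0.26 without the cell filter and 1.25 ± 0.34 without the 5 kept cells of each mouse with the most Spp1 reads, neither past the test), with 0 of 276 genes called by edgeR, 13 at an unadjusted p under 0.05 and 1 called by DESeq2. The share of positive cells and the CPM thus gave different orders in this class. Without the cell filter, its shares were 25.3% in KO1 and 8.85% in KO2, against 9.86% in WT1 and 11.6% in WT2. KO2 then lay below both Abi3+/+ mice.

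In double-negative microglia, the shares of KO1 and KO2 (2.68% and 0.823%) were above those of WT1 and WT2 (0.293% and 0.477%, two-sided exact permutation test, p = 0.333). Their levels were 89.6 and 20.3 CPM against 18.3 and 20.1 CPM, with KO1 well above the other 3 mice. In macrophages the genotypes overlapped, with 13.3% and 5.13% against 18.8% and 3.85% (exact permutation test, p = 1). Their edgeR difference was -0.91 ± 1.41 (adjusted p = 0.98), and its sign turned without WT1 (1.72) and without the cell filter (0.052), with 0 of 252 genes called, 16 at an unadjusted p under 0.05 and 7 called by DESeq2, Spp1 not among them.

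In CPM, the gap was wider among the cells over the read limit. In microglia over the limit, Spp1 had 4298 and 2385 CPM in KO1 and KO2 against 444 and 499 in WT1 and WT2. Without any cell filter, the difference in microglia was 2.16 ± 0.26 on the log2 scale (adjusted p = 0.29), more than 1.5 times the fold among kept cells. The shares of cells were at 59.9% and 19% against 16.5% and 18.8% of microglia over the limit. The intervals of KO2, WT1 and WT2 overlapped. Of the Spp1 reads over the limit, 50% lay in 3 cells of KO1, 2 of KO2, 4 of WT1 and 4 of WT2. Without the 5 kept cells of each mouse with the most Spp1 reads, the difference among kept microglia was 1.93 ± 0.36 (adjusted p = 0.45). These cells were picked by Spp1 itself and weigh most in WT1, so this value cannot be read as a wider gap.

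**Figure D5:**
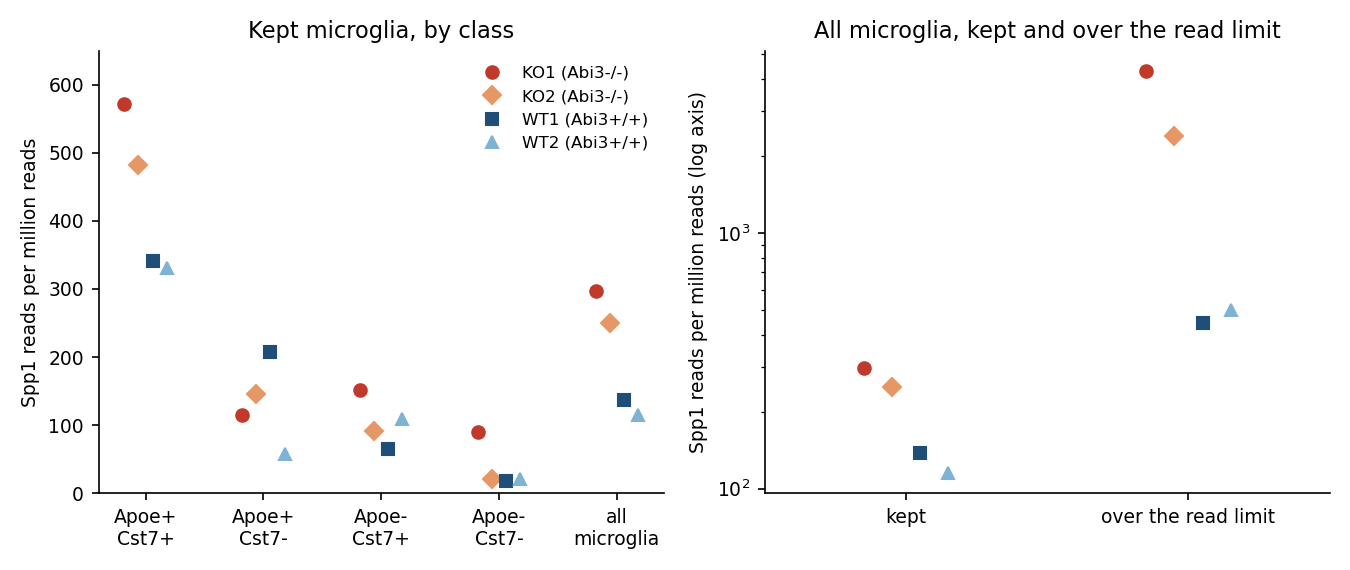
Spp1 CPM within the class (vertical axis) with 1 point per mouse, in kept microglia by class (left, linear axis) and in all microglia that were kept or lay over the read limit (right, log axis). KO1 and KO2 lie at 297 and 250 in kept microglia and at 4298 and 2385 over the limit, above WT1 and WT2 at 137 and 115 and at 444 and 499.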

How the data were processed

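Single brain cells of 4 mice were captured on BD Rhapsody with a targeted mouse immune panel. Per the study's methods, the authors ran the platform's targeted pipeline at its defaults, and the deposited values are error-corrected read counts. The submitters' processing notes name the build mm10. Libraries held 87117727 to 150756771 reads. Cells with 40 or more genes and at most 59300 reads were kept (13820). The study's methods give the same upper limit and word the minimum as 40 unique reads. No cell had fewer than 404 reads, so a minimum of 40 total reads removes 0 cells and leaves 19494. The gene minimum leaves a total close to, but not the same as, the one the study analysed. No doublet caller was run. A marker counted from 1 read. Per-mouse sums were tested with edgeR 4.0.16 (quasi-likelihood, filterByExpr, TMM, Benjamini-Hochberg over all genes tested, threshold 0.05), with DESeq2 1.42.0 and limma 3.58.1 as alternatives. Genes named were the fixed lists, the 10 largest called rises and falls that moved one way in 4 mice with a read in 5% of microglia, and the 10 best correlated with Spp1. Members, lists and tests were chosen with earlier results of these data known. In simulated data, 200 genes were changed 4-fold, a large part of all genes. The microglia genotype fit (355 genes) recovered 0% at the observed dispersion of 0.632 and 100% at 0.01. The fit of Spp1-positive cells (354 genes) recovered 26.3% at 0.482 and 98.9% at 0.01. Of the unchanged genes, these fits called 0 and 0 at the observed dispersions, and 8 and 16 at 0.01. Some genes that these rules take in are not reported here.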

Additional observations from a re-analysis of the deposited data

Results flagged for a closer look

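Spp1 was found in cells over the read limit or under the gene minimum, which the comparisons of kept cells do not use. Each share given here comes from more than 3 positive cells, which is all that singles it out, and no background rate was set for these cells. Among cells over the read limit, 58.4% had a Spp1 read in KO1, 16.8% in KO2, 16.7% in WT1 and 17.7% in WT2. Among cells with fewer than 40 genes, 0.690% were Spp1-positive in KO1, 0.999% in KO2 and 0.505% in WT2, and WT1 had 2 such cells. A cause was not tested.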

How the results depend on the processing

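The genotype difference of Spp1 in microglia kept its direction under each alternative run. DESeq2 called it in microglia (1.28) and over all kept cells (1.06), where edgeR did not. DESeq2 called 7, 10, 1 and 7 genes over all kept cells, microglia, double-positive microglia and macrophages, against 0 by edgeR, and leaving out 1 mouse gave 0 to 2 calls in double-positive microglia, the 2 without KO1. With the replicate block, the Spp1 difference was 1.05, 1.32, 0.60 and -0.10 in these 4 classes, and 0 genes were called in each. No source says that the label numbers pair the mice, and the deviations of same-numbered mice correlated at 0.06, 0.15, 0.20 and 0.14 across genes. Some values did split by number. C1qb in microglia had 68451 and 57310 CPM in KO1 and WT1 against 22205 and 24102 in KO2 and WT2. Kept neutrophils were 5 and 6 against 90 and 21. Median reads per microglia did not split so (24707 and 19789 against 19923 and 22753.5). Whether same-numbered libraries share a batch was not tested. The macrophage difference has no stable sign. It ranged from -1.78 to 1.72 on leaving out 1 mouse, with the positive value without WT1, and was 0.052 without the cell filter. Its share difference of -2.07 points became 0.28 without the cell filter and ranged from -9.52 to 5.38 on leaving out 1 mouse. No macrophage is left among cells without a marker of another class.

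The gap between double-positive and double-negative microglia (7.97 points) was 12.8 without the cell filter. In the fit of Spp1-positive microglia, the 31 higher and 48 lower genes became 55 and 62 with DESeq2, 50 and 65 without the cell filter, 7 and 7 in double-positive microglia, and 0 and 0 at or under the median depth. The lower genes were 16 with depth-weighted negative cells, 25 without the filter on low counts and 24 in cells without a marker of another class. With no replicate block 22 were higher and 54 lower. Leaving out 1 mouse gave 11 to 26 higher and 5 to 37 lower genes, fewest without WT2. At or under the median depth, where only 10 to 27 Spp1-positive cells per mouse remained, Fn1 was at -2.16 and Lgals1 at -0.023. The alternatives on depth weighting, other markers and the 5 top cells were added after seeing the data. The causes were not tested.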

Other observations

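Cells outside every marker class included 7 Spp1-positive cells of 166, of which 1 cell of WT2 held 1214 Spp1 reads, 10.7% of the kept Spp1 reads of that mouse. Macrophages over the read limit had 8 Spp1-positive cells of 37, namely 4 of 7 in KO1, 0 of 13 in KO2, 2 of 5 in WT1 and 2 of 12 in WT2.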
